A study of Mus musculus with 6 samples.

Results

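The Obox genes are a mouse family of PRD class homeobox genes that encode DNA-binding proteins of the oocyte and the early embryo. Obox1, Obox2 and Obox5 are known as maternal members, transcribed in the growing oocyte and passed to the zygote, whereas Obox3 is known as a zygotic member that is transcribed when the genome of the embryo is activated. The maternal and zygotic members act redundantly in genome activation, and mouse embryos without them arrest early. Obox6, known from work on reprogramming to pluripotency, was kept apart from both classes. The members were the genes with the symbols Obox1, Obox2, Obox3, Obox5 and Obox6, 5 of the 48967 genes with exonic parts, and all 5 were among the 16020 genes that passed the filter on low counts. A further 50 genes with an Obox symbol, most of them pseudogenes, were examined beside them.

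RNA was measured in 6 libraries of wild-type 2-cell embryos of the F1 (C57Bl/10 X CBA/H) strain, 3 from control and 3 from delipidated zygotes, each library from a pool of 3 embryos. All embryos were cultured in KSOM without fatty acids at 37.5 °C and 5% carbon dioxide from 0.5 to 2.0 dpc, and are labelled day 2. Delipidated zygotes were treated with cytochalasin B at 50 µg/mL, spun at 4200 g and at 9500 g for 10 min each, and their lipid droplets were aspirated through an opening made by laser in the zona pellucida, with a pipette of 12 µm inner diameter. The labels do not say whether control zygotes were spun or opened, so lipid removal and these steps cannot be told apart. The pools were separate tubes of embryos drawn at random from each group, so the p-values measure the spread between pools. Embryos of 6 females had been mixed before they were allocated to the groups. The p-values therefore do not measure the spread between mice or between rounds of collection. The libraries held 12480952, 16582054 and 13318885 counts over exonic parts in the control group and 20571131, 16762489 and 15066302 in the delipidated group. Genes with at least 1 count numbered 22855, 22437 and 20582 in the control and 17091, 19408 and 20158 in the delipidated libraries. These numbers did not overlap between the groups, and delipidated replicate 1 had the most counts and the fewest genes. In a pool of whole embryos, fewer cells with a transcript and less transcript per cell cannot be told apart.

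The label of 2-cell embryos was checked against marker genes. The 5 zygotic markers of the 2-cell stage had a summed level of 194.5, 85.1 and 192.5 CPM (counts scaled to a common total over the tested genes, given per M counts) in the control libraries and 126.8, 177.2 and 220.2 CPM in the delipidated libraries, with Zfp352 the most abundant per length. The 6 maternal markers summed to 857, 573 and 804 CPM and to 729, 813 and 1128 CPM, with Npm2 the most abundant per length. Both classes of transcripts were therefore counted in every library. Markers of cumulus and granulosa cells summed to 1.77, 4.54 and 56.7 CPM in the control and 2.12, 7.80 and 3.60 CPM in the delipidated libraries, and 2 of the 9, Ptx3 and Foxl2, had no counts in any library. In control replicate 3, 49.6 CPM of this sum came from Cyp11a1, which was named after its values were seen. The most abundant gene of that list per length was Tnfaip6. Markers of oviduct epithelium, with Krt8 the most abundant per length, lay between 3.71 and 12.1 CPM, and those of leukocytes, with Cd68 the most abundant per length, between 0.346 and 8.82 CPM. Stromal markers, with Pdgfra the most abundant per length, were at 5.48, 9.98 and 5.93 CPM in the control and 1.93, 3.50 and 4.10 CPM in the delipidated libraries, without overlap (exact two-sided permutation p = 0.1, the smallest that 3 against 3 libraries allow). Col1a1, 1 of the 5 and picked out with its values known, had no counts in any delipidated library. Col3a1 had none there either, against 10, 8 and 0 counts in the control libraries. Dcn went the other way, with 0 counts in every control library and 27 in delipidated replicate 3. The groups overlapped for Col3a1, Dcn, Col1a2 and Pdgfra. The part of these transcripts, and of the number of genes with a count, in the Obox values was not tested.

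The members lie together on chromosome 7 of GRCm38, within 0.451 Mb from 15388721 to 15839678. Obox2 (ENSMUSG00000074369) occupies chr7:15388721-15398545 and Obox1 (ENSMUSG00000054310) chr7:15388948-15556866, both on the plus strand. Obox5 (ENSMUSG00000074366) follows on the plus strand at chr7:15750131-15759800. Obox3 (ENSMUSG00000066772) lies on the minus strand at chr7:15479825-15639902, and Obox6 (ENSMUSG00000041583) on the minus strand at chr7:15833241-15839678. The annotated extents of Obox1 and Obox2 overlap because 1 Obox1 transcript starts in the first exon of Obox2, and those of Obox1 and Obox3 overlap on opposite strands. Of all 55 genes with an Obox symbol, 53 lie on chromosome 7, in a stretch of 1.51 Mb, and 2 on chromosome 17.

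**Figure D1:**
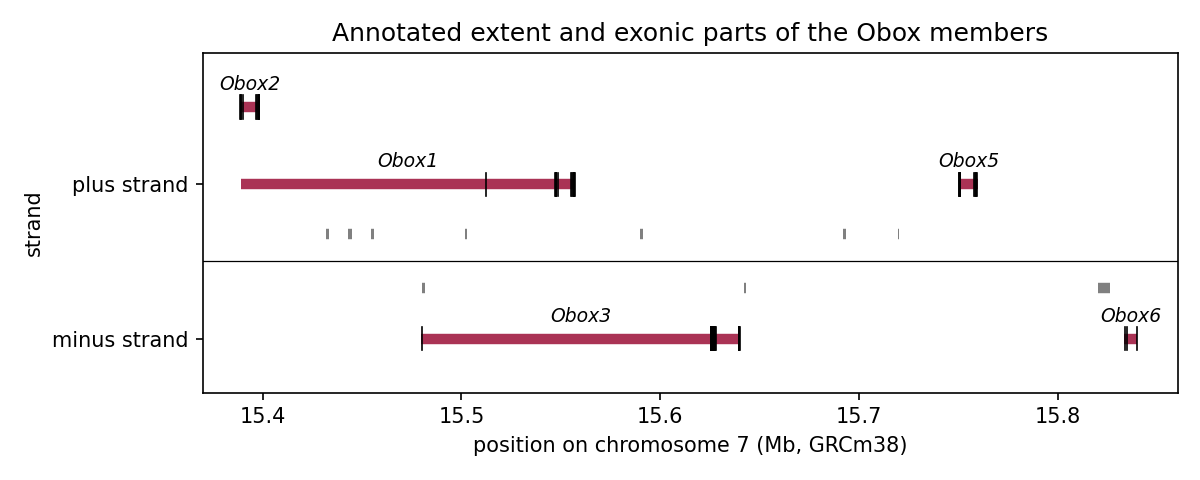
Map of the Obox members on chromosome 7, with the position in Mb of GRCm38 on the horizontal axis and the strand on the vertical axis. Red bars are the annotated extents of the 5 members, black ticks their exonic parts and grey bars other Obox genes. Obox1 and Obox2 are drawn at different heights because they overlap at 15388948.

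Obox5 had the highest level of the maternal members on exons of like length. Its level was 584.9, 187.7 and 598.7 CPM in the control libraries and 260.1, 224.8 and 742.8 CPM in the delipidated libraries. Both groups held high and low libraries, and delipidated replicate 3 was the highest and control replicate 2 the lowest of the 6. The group means were 457 ± 233 and 409 ± 289 CPM (SD, n = 3 each), so their difference was smaller than the spread within either group. The log2 fold change of delipidated over control embryos was -0.16 ± 0.48 (SE), with a 95% confidence interval from -1.20 to 0.88. Without delipidated replicate 3 it was -0.92, with an unadjusted p of 0.0404 and an adjusted p of 0.863 by edgeR, the lowest of its alternatives, which reach 1.00. It turned positive when control replicate 1 (0.079), control replicate 3 (0.085), delipidated replicate 1 (0.082) or delipidated replicate 2 (0.13) was left out.

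Obox1 followed a similar order of libraries. It was counted at 101.4, 50.9 and 70.1 CPM in the control and 53.6, 44.7 and 148.3 CPM in the delipidated libraries. As for Obox5, delipidated replicate 3 was the highest library and the other delipidated libraries were low. The means were 74.1 ± 25.5 and 82.2 ± 57.4 CPM (SD, n = 3 each), with a log2 fold change of 0.15 ± 0.44 (SE) and a confidence interval from -0.81 to 1.11. The sign turned without control replicate 2 (-0.061), without delipidated replicate 3 (-0.595), with the replicate number as a block (-0.015) and with the part of most counts in place of the sum (-0.098).

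Obox2 was the member with the lowest level of unique reads on exons of like length. It was at 32.9, 17.6 and 52.6 CPM in the control and 12.3, 26.1 and 29.0 CPM in the delipidated libraries. Control replicate 3 was the highest library and delipidated replicate 1 the lowest, and the groups overlapped. The means of 34.4 ± 17.5 and 22.5 ± 8.93 CPM (SD, n = 3 each) gave a log2 fold change of -0.61 ± 0.47 (SE) and a confidence interval from -1.65 to 0.42. It was negative in all 12 alternative settings that gave a value for Obox2, from -0.93 to -0.17, with adjusted p-values between 0.718 and 1.00 by edgeR or DESeq2.

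Obox3, the zygotic member, varied less. Its level was 102.5, 98.1 and 115.5 CPM in the control and 62.3, 101.8 and 122.4 CPM in the delipidated libraries. Only delipidated replicate 1 lay apart from the other 5 libraries, on the low side. The means were 105 ± 9.07 and 95.5 ± 30.5 CPM (SD, n = 3 each), and the log2 fold change was -0.14 ± 0.28 (SE), with a confidence interval from -0.75 to 0.46. Without delipidated replicate 1 it was 0.09.

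Obox6 was the steadiest member, at 92.9, 113.2 and 90.5 CPM in the control and 93.4, 108.2 and 81.2 CPM in the delipidated libraries. Here control replicate 2 was the highest and delipidated replicate 3 the lowest, the reverse of Obox5. The means of 98.9 ± 12.5 and 94.2 ± 13.5 CPM (SD, n = 3 each) gave a log2 fold change of -0.069 ± 0.24 (SE) and a confidence interval from -0.59 to 0.45. The sign turned without control replicate 2 (0.041) and without delipidated replicate 3 (0.025).

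None of the 5 members was called, which required an adjusted p under 0.05 and a log2 fold change beyond 1 in edgeR's quasi-likelihood test over all genes. Over the 16020 genes tested this test called 0 genes, or 0% (0 higher and 0 lower), and the Wald test of DESeq2, run unfiltered, called 9 higher and 40 lower, of which 0 were Obox genes. An unadjusted p under 0.05 was found for 0 of the 5 members, the lowest being 0.220 for Obox2, against 463 genes or 2.89% of all tested. The adjusted p of each member was 1.00. The CPM of the groups overlapped for all 5 members, while they did not overlap for 1420 genes or 8.86% of those tested. The median log2 fold change of the members, 1 positive and 4 negative, was -0.14, beside -0.001 over all tested genes. The confidence intervals allow changes of up to 2.15-fold upward for Obox1 and down to 0.319 of the control level for Obox2, so a 2-fold change lies inside the interval of each maternal member.

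**Figure D2:**
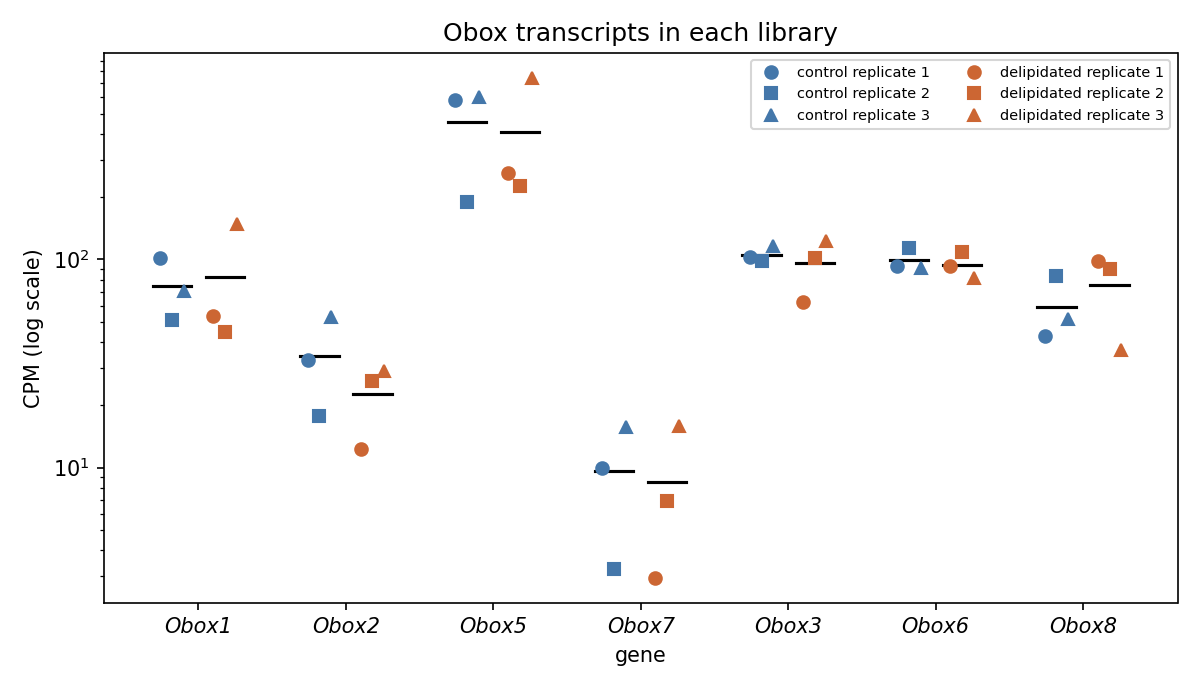
Level of 7 Obox genes in CPM on a log scale, with the genes on the horizontal axis. Each point is a library, blue for control and orange for delipidated embryos, the symbol gives the replicate, and the black lines are group means. Obox5 ranges from 187.7 to 742.8 CPM across libraries of both groups, while Obox6 stays between 81.2 and 113.2 CPM.

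Summed over Obox1, Obox2 and Obox5, the maternal members came to 719.2, 256.2 and 721.4 CPM in the control and 326.0, 295.6 and 920.1 CPM in the delipidated libraries. Both groups held libraries at either end of this range, and the means of 566 ± 268 and 514 ± 352 CPM (SD, n = 3 each) differed by less than the spread, at an exact permutation p of 1.0 (two-sided). Obox5 made up 73.3% to 83.0% of the sum. This share is of unique counts summed over parts and is not per length. It leaves out the 3 parts that overlap exons of both Obox1 and Obox2. With 1 library left out at a time the difference between the means ranged from -257 CPM without delipidated replicate 3 to 57.7 CPM without delipidated replicate 2. It was also positive without control replicate 1 (32.2 CPM), control replicate 3 (26.6 CPM) or delipidated replicate 1 (42.1 CPM).

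The ratio of zygotic to maternal transcripts, taken as log2 of Obox3 over the maternal sum with 1 CPM added to each, was -2.80, -1.38 and -2.63 in the control and -2.37, -1.53 and -2.90 in the delipidated libraries. In CPM, which are not per length, the maternal sum exceeded Obox3 in every library, from 2.61-fold in control replicate 2 to 7.52-fold in delipidated replicate 3. The group means were -2.27 ± 0.78 and -2.27 ± 0.69 (SD, n = 3 each), with an exact permutation p of 1.0 (two-sided). The difference of 0.0031 was far below the spread, and its sign turned without control replicate 1 (-0.26), control replicate 3 (-0.18) or delipidated replicate 2 (-0.37). With Obox6 counted as zygotic the difference was 0.077, and with the Obox3 and Obox4 copies added to Obox3 it was 0.19 (exact two-sided permutation p = 1.0 and p = 0.9).

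The spread within the groups was larger for the 3 maternal members than for Obox3 and Obox6. The SD of log2 CPM within groups was 0.95 for Obox5, 0.75 for Obox1 and 0.73 for Obox2, against 0.37 for Obox3 and 0.19 for Obox6. Of the other protein-coding Obox genes, Obox7 had 1.16 and Obox8 0.66, so a wide spread was not limited to these 3 members. Over the 7836 tested genes with a mean of at least 10 CPM the median of this SD was 0.39, and over all 16020 tested genes 0.659. This difference in spread was not tested.

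Levels were compared between genes on homologous exons, since sums over parts count a read several times. The exon with the first coding bases has 262 bases in Obox1, Obox2, Obox3, Obox5 and Obox7, and the next has 200 bases, or 199 in Obox2 and 195 in the part counted for Obox7. On the second, Obox5 had 558 ± 303 CPM per kb (SD, n = 6 libraries), Obox3 101 ± 21.0, Obox1 99.0 ± 46.0, Obox2 40.65 ± 17.3 and Obox7 15.5 ± 12.3. Obox5, at 229 to 939 CPM per kb, lay above Obox3, at 65.7 to 127, in every library. Obox3 and Obox1, Obox1 and Obox2, and Obox2 and Obox7 overlapped in their ranges as neighbours in this order. On this exon the order of the means of Obox3 and Obox1 turned between the groups, by less than the spread. These means were 108.8 ± 16.8 and 101.0 ± 46.2 CPM per kb in the control libraries (SD, n = 3). In the delipidated libraries they were 92.6 ± 25.0 and 96.95 ± 56.0 (SD, n = 3). On the first coding exon the order was Obox5 with 472 ± 248 CPM per kb (SD, n = 6), Obox3 with 72.4 ± 16.9, Obox1 with 59.6 ± 33.8, Obox2 with 28.8 ± 12.4 and Obox7 with 10.4 ± 6.55. There the mean of Obox3 lay above that of Obox1 in both groups, at 76.8 and 65.0 in the control and 68.0 and 54.1 in the delipidated libraries. The places of Obox1 and Obox2 in both orders are uncertain, since only unique reads were counted and these genes are close in sequence. Obox6 has another exon structure, and its 586-base exon at chr7:15834380-15834965 had 92.2 ± 11.5 CPM per kb (SD, n = 6).

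The exonic parts gave detail on which ends of the genes were covered. All 28 parts of Obox1 and Obox2 are listed under a joined identifier of both genes, and 3 of them, from 15388948 to 15389006, overlap exons of both and were left out. Of the 15 parts assigned to Obox1, 6 had no counts in any library. These include the 5 parts from 15546982 to 15547504, which hold the annotated starts of 3 transcripts. Only unique reads were counted, and Obox1 and Obox2 are close in sequence, so 0 counts do not show that these starts were unused. The part at chr7:15548411-15548550, the first exon of another transcript, held 35, 13 and 4 counts in control against 0, 30 and 46 in delipidated libraries. The part of Obox3 at chr7:15479825-15480127, far downstream on the minus strand and next to the pseudogene Obox3-ps6, held 47, 92 and 57 counts in control against 190, 18 and 86 in delipidated libraries. Delipidated replicate 1, the lowest library for Obox3 as a whole, was the highest at this part, and delipidated replicate 2 the lowest. Obox3-ps6 had the same extremes, at 32.5 CPM in delipidated replicate 1 and 15.8 CPM in delipidated replicate 2. The part of this pseudogene in these counts was not tested. On the second coding exon of Obox3 control libraries held 221, 353 and 333 counts and delipidated libraries 266, 316 and 326. These counts are not scaled for depth. In CPM, delipidated replicate 1 was the lowest library on this exon too, at 13.1.

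The copies are close in sequence, which limits how far uniquely mapped reads can separate them. The second coding exon is shown for 4 members because it is the stretch on which their levels were compared. The sequences are those of GRCm38, read in the direction of transcription from the reference transcripts, at chr7:15757879-15758078 on the plus strand for Obox5, chr7:15555505-15555704 on the plus strand for Obox1, chr7:15397188-15397386 on the plus strand for Obox2 and chr7:15626796-15626995 on the minus strand for Obox3. Capitals mark bases that differ from Obox5 in a pairwise alignment.
Obox5: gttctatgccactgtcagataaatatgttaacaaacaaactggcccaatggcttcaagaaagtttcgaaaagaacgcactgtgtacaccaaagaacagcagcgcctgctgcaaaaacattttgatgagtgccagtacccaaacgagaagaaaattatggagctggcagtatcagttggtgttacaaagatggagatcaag
Obox1: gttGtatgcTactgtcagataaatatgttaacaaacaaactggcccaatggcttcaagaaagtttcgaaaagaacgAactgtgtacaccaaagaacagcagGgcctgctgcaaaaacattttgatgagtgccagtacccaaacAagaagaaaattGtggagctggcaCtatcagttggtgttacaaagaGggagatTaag
Obox2: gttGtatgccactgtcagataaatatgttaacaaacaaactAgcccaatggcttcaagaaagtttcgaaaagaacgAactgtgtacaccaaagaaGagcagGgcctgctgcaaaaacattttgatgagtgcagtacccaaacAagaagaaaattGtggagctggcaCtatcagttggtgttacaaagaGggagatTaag
Obox3: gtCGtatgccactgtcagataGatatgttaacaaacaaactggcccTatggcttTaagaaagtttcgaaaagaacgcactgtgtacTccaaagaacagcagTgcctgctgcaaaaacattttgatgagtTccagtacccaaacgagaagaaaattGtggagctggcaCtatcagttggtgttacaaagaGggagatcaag

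Obox1 differed from Obox5 at 9 of 200 aligned positions, Obox3 at 11, and Obox2 at 11, of which 1 is a base that Obox2 lacks. Obox1 and Obox2 were the closest pair, with 98.0% identity on this exon and 99.2% on the first coding exon. The annotated coding sequence of Obox2 has 151 codons and ends after 37 bases of the third coding exon, whereas that of Obox1 has 204 codons and uses 195 bases of it. Obox5 has 291 codons, Obox3 335 and Obox6 347. The 586-base exon of Obox6 aligned to the first 2 coding exons of Obox5 over 264 positions with 81.1% identity.

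Windows of 150 bases, the length of a read, were compared with the reference transcripts of all other genes on the sense strand. Obox1 and Obox2 shared 591 windows with each other, or 34.1% of those of Obox1 and 38.2% of those of Obox2. Obox3 shared 4.5% of its windows with the pseudogene Obox3-ps3, and Obox5 and Obox6 shared 0. In windows of 75 bases the shares were 47.2% for Obox1, 52.6% for Obox2, 12.3% for Obox3, 6.0% for Obox5 and 1.3% for Obox6. The levels of Obox1 and Obox2 are therefore uncertain, because only unique reads were counted and the strain of the embryos differs from the reference.

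A short motif was found near the annotated starts of some maternal and zygotic members. The promoter table of RefSeq on GRCm38.p6, with 250 bases before and 50 after each start, holds 4 of the 5 members, Obox1, Obox2, Obox3 and Obox5, and Obox7. The motif TATATAA was searched on both strands and was found in the windows of Obox1, Obox3, Obox5 and Obox7, not in that of the maternal member Obox2, and in 3.24% of all 32851 windows. The surrounding 30 bases are shown for 3 members, whose levels differ in their spread, with the motif in capitals, at chr7:15547224-15547253 on the plus strand for Obox1, chr7:15750325-15750354 on the plus strand for Obox5 and chr7:15639792-15639821 on the minus strand for Obox3. The motif begins 19 bases before the RefSeq start of Obox1, 31 before that of Obox5 and 30 before that of Obox3, and some other annotated transcripts start further upstream. This start of Obox1 lies in the part at chr7:15546982-15547276, which had 0 counts in all 6 libraries. As only unique reads were counted, 0 counts there do not show that this start was unused.
Obox1: caagtttgcagagaTATATAAgggcaggtc
Obox5: caagtttgcagagaTATATAAgggcaggtc
Obox3: caagtttggagagaTATATAAgggcaggtc

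The sequence TAATCC, searched on both strands as a motif of PRD class homeodomains, was found in the window of Obox3 and in 7.06% of all windows. A match is a description of these letters in these windows.

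Among the other 50 genes with an Obox symbol, 47 are annotated as pseudogenes, 33 had at least 1 count in some library and 11 passed the filter on low counts. None of the 11 had an unadjusted p under 0.05 in edgeR, beside 2.89% of all genes tested. Their log2 fold changes were positive for 5 and negative for 6, with a median of -0.029. Obox7, a maternal gene of the family outside the 5 members, had 9.96, 3.27 and 15.6 CPM in the control and 2.96, 6.88 and 15.8 CPM in the delipidated libraries. Like Obox5, it was low in control replicate 2 and in delipidated replicates 1 and 2. Its log2 fold change was -0.17 ± 0.73 (SE), and the sign turned without control replicate 3 (0.37) or delipidated replicate 1 (0.24). Obox8 had 42.7, 83.2 and 51.6 CPM in the control and 98.7, 90.0 and 36.5 CPM in the delipidated libraries. Its order of libraries was the opposite of that of Obox5 in part, with delipidated replicate 3 the lowest. The log2 fold change of Obox8 was 0.34 ± 0.39 (SE), and with each library left out it lay between 0.098 without delipidated replicate 1 and 0.672 without control replicate 2.

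Of the Obox3 pseudogenes, all 8 had counts. Obox3-ps1, Obox3-ps2, Obox3-ps3, Obox3-ps4, Obox3-ps5 and Obox3-ps6 had log2 fold changes between -0.20 and 0.40. The groups overlapped for each of these 6. Obox3-ps7 was the 1 gene of the 11 whose groups did not overlap, a share to be read beside the 8.86% of all genes tested. It had 8, 24 and 0 counts in control against 128, 63 and 59 in delipidated libraries, and its log2 fold change was 2.73 ± 1.26 (SE) (edgeR, unadjusted p = 0.0521, adjusted p = 1.00). With 0 counts in control replicate 3, it met the filter on low counts through the delipidated libraries, where it was high. For this gene the test and the lack of overlap are therefore descriptions, from which no conclusion is drawn. Obox4 has no protein-coding copy in the annotation used here. Of its 39 annotated copies, Obox4-ps35, annotated as a long noncoding RNA, was the most abundant, with 40.2, 32.7 and 52.0 CPM in the control and 49.0, 52.8 and 70.6 CPM in the delipidated libraries. The highest library was delipidated replicate 3 and the groups overlapped, with a log2 fold change of 0.47 ± 0.31 (SE). The other 38 copies had at most a mean of 10.5 counts per library, among them Obox4-ps3 and Obox4-ps39, and 16 of them had no counts.

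**Figure D3:**
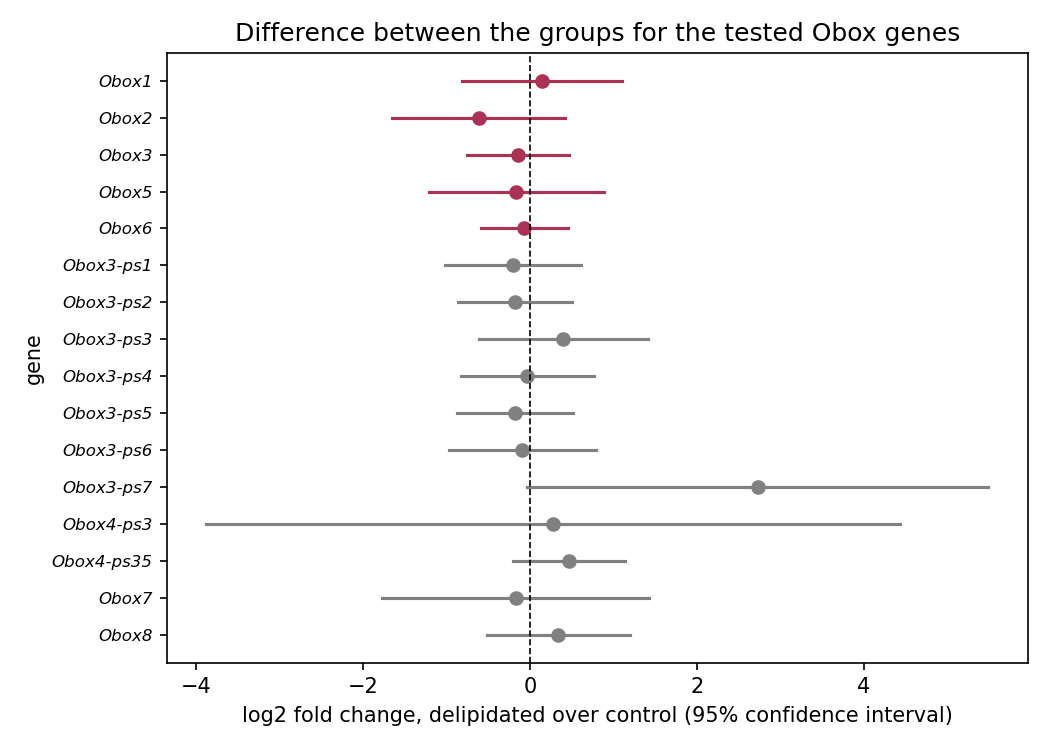
Log2 fold change of delipidated over control embryos for the 16 tested Obox genes, on the horizontal axis, with the genes on the vertical axis. Points are estimates of edgeR and lines their 95% confidence intervals, red for the 5 members and grey for other Obox genes. Every interval includes 0.

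Other genes of the class and of genome activation were examined as lists. Of 21 PRD class homeobox genes outside the family, 10 passed the filter, and 0 of them were called by edgeR or DESeq2, 1 with an unadjusted p under 0.05 in edgeR, beside 2.89% of all genes tested. The median log2 fold change of the 10 was 0.037, with 6 positive and 4 negative, beside -0.001 for all tested genes. The 21 genes summed to 225.8, 229.8 and 221.7 CPM in the control and 259.5, 278.3 and 230.7 CPM in the delipidated libraries. These sums did not overlap, with delipidated replicate 3 nearest to the control libraries, at the smallest exact permutation p of 0.1 (two-sided). Sebox, the most abundant per length, was at 80.9, 68.2 and 70.6 CPM in the control and 68.8, 77.3 and 101.4 CPM in the delipidated libraries. Duxbl1, a relative of the genome activator Dux, had 3.46, 1.21 and 5.25 CPM in the control and 19.4, 4.12 and 8.75 CPM in the delipidated libraries, a log2 fold change of 1.70 ± 0.77 (SE) (edgeR, unadjusted p = 0.0470, adjusted p = 1.00). Delipidated replicate 1 was the highest and the groups overlapped. Without delipidated replicate 1 the log2 fold change of Duxbl1 was 0.963 (edgeR, unadjusted p = 0.275). Crx, a homeobox gene of photoreceptors, had 2.03, 7.20 and 7.07 CPM in the control and 5.73, 0.246 and 0 CPM in the delipidated libraries. Its groups overlapped through delipidated replicate 1, and its log2 fold change was -1.43 ± 1.39 (SE). That value was -0.918 without delipidated replicate 2 and -0.863 without delipidated replicate 3, while the part of most counts gave 0.114. Without delipidated replicate 1 it was -5.33, but the delipidated libraries that were left held 4 and 0 counts of Crx. The size of that fold is therefore not exact, and no test is read from it.

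Of 15 regulators of genome activation, all passed the filter and 0 were called by edgeR or DESeq2. Their log2 fold changes were positive for 5 and negative for 10, with a median of -0.083. In edgeR, 0 of the 15 had an unadjusted p under 0.05, beside 2.89% of all genes tested. Gabpa, an ETS family factor, was at 481, 554 and 469 CPM in the control and 449, 340.1 and 350.0 CPM in the delipidated libraries. All control libraries lay above all delipidated ones (8.86% of all genes tested did not overlap), with a log2 fold change of -0.40 ± 0.18 (SE) (edgeR, unadjusted p = 0.0504, adjusted p = 1.00). Trim28, a corepressor of transposable elements, had a log2 fold change of -0.26 ± 0.21 (SE). Klf17, the most abundant per length, had -0.042 ± 0.20 (SE), and its sign turned without control replicate 1 (0.094) or delipidated replicate 2 (0.012).

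Of 22 genes of the 2-cell activation program, 21 passed the filter, with 13 positive and 8 negative log2 fold changes and a median of 0.16, and 0 were called by edgeR or DESeq2. Their summed level was 1164, 575 and 995.5 CPM in the control and 840.2, 1041 and 1323 CPM in the delipidated libraries. Control replicate 2, low for the maternal Obox genes, was the lowest library here too, and delipidated replicate 3 the highest. Usp17lb was the 1 gene of the 21 with an unadjusted p under 0.05, beside 2.89% of all genes tested. Its level was 105.5, 66.3 and 113 CPM in the control and 118.6, 176.5 and 148 CPM in the delipidated libraries, with a log2 fold change of 0.64 ± 0.27 (SE) (edgeR, unadjusted p = 0.0364, adjusted p = 1.00). The groups did not overlap, as for 8.86% of all genes tested. Tdpoz4, a BTB domain gene, had a log2 fold change of 0.74 ± 0.58 (SE). It was 0.425 without control replicate 1, 0.462 without control replicate 2, 0.346 without delipidated replicate 2 and 1.646 without control replicate 3 (edgeR, unadjusted p = 0.0146, adjusted p = 1.00).

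Of 20 maternal oocyte transcripts, 18 passed the filter, with 10 positive and 8 negative log2 fold changes and a median of 0.076. By edgeR and by DESeq2 0 were called. In edgeR 0 had an unadjusted p under 0.05, beside 2.89% of all genes tested. Their summed level was 4917, 3056 and 4582 CPM in the control and 3615, 3795 and 5381 CPM in the delipidated libraries. The order of libraries was that of the maternal Obox sum at both ends, with control replicate 2 lowest and delipidated replicate 3 highest. Dppa3, the most abundant per length, had a log2 fold change of 0.071 ± 0.18 (SE). Npm2, a histone chaperone of the egg, had 0.40 ± 0.23 (SE), and Zp2, a zona pellucida gene, -0.41 ± 0.34 (SE). The sign turned for Zp2 with the part of most counts (0.031). For Dppa3 it turned without control replicate 2 (-0.014) or delipidated replicate 3 (-0.072).

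Genes outside the family were ranked by likeness to each member, as the root mean square difference of log2 CPM over the 6 libraries after each gene was centred on its mean. Nlrp4f (0.091) and Sptbn1 (0.11) were nearest to Obox1, against a median of 0.89 over the tested genes outside the family. Epsti1 and Smco4 were nearest to Obox5, both at 0.13 against a median of 1.01. For Obox2 they were Zfp174 (0.16) and Kdelr1 (0.19), against 0.90. These genes were chosen for their profile over the same 6 libraries, so the likeness is a description. Mindy3 (0.07) and Atl1 (0.083) were nearest to Obox3, against 0.69, and Zfand2a (0.06) and Stip1 (0.065) to Obox6, against 0.63. With the part of most counts in place of the sum, the difference was larger, as for Mindy3 (0.44) and Kdelr1 (0.511). Of the 6 other protein-coding Obox genes, to which this comparison was limited, Obox5 was nearest to Obox1 (0.36).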

How the data were processed

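RNA of 6 libraries, 3 control and 3 delipidated, was sequenced in paired reads of 150 bases after depletion of ribosomal RNA. The submitters' processing notes name bcl2fastq 2.20, Trimmomatic 0.36, STAR 2.5.2b, featureCounts and mm10, and the authors deposited raw counts of unique reads per exonic part (425461 parts). A read can count in several parts, so sums can exceed the number of reads. The library kit was strand-specific. Parts were summed per Ensembl gene, and 27968 of 33309 parts under joined identifiers overlapped exons of 1 gene and were assigned to it; assigned counts ranged from 12164963 to 20059460.

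The groups come from the labels; edgeR 4.0.16 (R 4.3.3) tested each gene between them (filterByExpr, minimum count 10, minimum total 15, TMM, quasi-likelihood test, Benjamini-Hochberg adjustment over all 16020 genes), and the method was tested on simulated data. CPM are scaled to TMM-adjusted totals. Sums and the ratio were compared with exact two-sided permutation tests. Alternatives were DESeq2 1.42.0 without a filter, its size factors, other filters, the replicate block, each library left out, joined identifiers left out, the part of most counts, other zygotic sets and no fold threshold. Exon sequences were read from GENCODE transcripts on GRCm38 and promoters from RefSeq on GRCm38.p6. Tables were made with Python 3.11.15.

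Named genes were the members, other Obox genes with a mean of at least 10 counts, from each list those called, otherwise the 2 with the smallest p and the most abundant per length, and the 2 nearest genes to each member. The members and lists were chosen with earlier results of these data known.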

Additional observations from a re-analysis of the deposited data

How the results depend on the processing

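No member passed the threshold in the alternatives that gave it a value. With every gene kept, 5 passed as higher and 25 as lower in edgeR, against 9 and 40 in the Wald test of DESeq2, 0 of which were Obox genes in DESeq2. With 1 library left out, 0 genes were called higher and 0 lower, beside 383 to 993 genes with an unadjusted p under 0.05. Obox1 and Obox2 have no value where joined identifiers were left out, and the maternal sum there is Obox5 alone. The replicate numbers did not pair the libraries, since same-numbered libraries had correlations of -0.084, 0.07 and 0.043 between their deviations from the group means, and the replicate block gave Obox1 -0.015, the 1 direction it turned among the Obox members, gave Crx -3.968 and called 0 genes. For these and the values below, the cause was not tested.

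The log2 fold change with each library left out ranged from -0.595 to 0.459 for Obox1, -0.927 to -0.171 for Obox2, -0.363 to 0.09 for Obox3, -0.917 to 0.134 for Obox5 and -0.181 to 0.041 for Obox6. The differences of the group means ranged from -256.7 to 57.7 CPM for the maternal sum, from -23.55 to 6.746 CPM for the zygotic sum and from -0.3653 to 0.4495 for the log2 ratio. Among other genes the ranges that crossed 0 were -0.289 to 0.19 for Obox3-ps4, -0.416 to 0.122 for Obox3-ps6, -0.402 to 1.078 for Obox4-ps3, -0.963 to 0.372 for Obox7, -0.006 to 0.288 for Sebox, -0.126 to 0.094 for Klf17 and -0.072 to 0.216 for Dppa3. Ranges on 1 side of 0 were -0.291 to -0.038 for Obox3-ps1, -0.317 to -0.029 for Obox3-ps2, 0.149 to 0.726 for Obox3-ps3, -0.399 to -0.028 for Obox3-ps5, 2.155 to 3.807 for Obox3-ps7, 0.29 to 0.657 for Obox4-ps35, 0.098 to 0.672 for Obox8, 0.963 to 2.207 for Duxbl1, -5.33 to -0.863 for Crx, -0.539 to -0.323 for Gabpa, -0.449 to -0.151 for Trim28, 0.436 to 0.778 for Usp17lb, 0.346 to 1.646 for Tdpoz4, 0.194 to 0.547 for Npm2 and -0.636 to -0.129 for Zp2.

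With the part of most counts in place of the sum, the sign turned for Obox1 (-0.098), Obox3-ps4 (0.143), Crx (0.114), Zp2 (0.031) and the log2 ratio (-0.02967). That setting kept the sign but moved by over 1.5 times Obox3 (-0.28), Obox5 (-0.246), the maternal sum (-101.8 CPM), the zygotic sum (-15.09 CPM), Obox3-ps2 (-0.088), Obox3-ps6 (-0.32), Obox7 (-0.347), Sebox (0.076), Klf17 (-0.096) and Dppa3 (0.027). It gave Duxbl1 1.234, and it moved the likeness of Nlrp4f (0.315), Sptbn1 (0.24), Kdelr1 (0.511), Mindy3 (0.44), Atl1 (0.168), Epsti1 (0.356), Zfand2a (0.177) and Stip1 (0.256). Kdelr1 was at 0.117 without delipidated replicate 1, Epsti1 at 0.082 without control replicate 2 and Zfand2a at 0.038 without control replicate 1. The planned settings kept the sign of Obox2 in all 12 that gave a value. The depth was 12480952 to 20571131 counts per library, and its part in the standard errors was not tested. These were 0.24 for Obox6 and 0.48 for Obox5, the member with the most counts and the largest spread within groups.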
